A study of Mus musculus with 22 samples.

Results

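The regions described here were E2F3a peaks between genes that were called after cocaine and had no counterpart in the saline list. A member was a cocaine peak on chromosomes 1 to 19, X or Y that overlapped no saline peak by 1 bp or more. Its summit, the position of highest signal, also lay outside every protein-coding gene of the mouse build mm10 and more than 1 kb from both ends of each. 1159 of the 3435 cocaine peaks on these chromosomes met the rule, and they were selected on the 2 measured peak lists, so their absence from the saline list is not a finding. The study profiled E2F3a in the nucleus accumbens of wildtype C57BL/6J mice of both sexes with CUT&RUN. The cocaine mice had received 20 mg/kg intraperitoneally on each of 7 days in the home cage, and the saline mice had received saline on the same schedule. The labels give 7 E2F3a libraries after cocaine, from 2 females and 5 males, and 4 after saline, from 2 females and 2 males. IgG libraries numbered 4 after cocaine and 5 after saline, and 2 more had titles and treatment labels that differed and went into no group; IgG signal was not analysed here. The labels do not say whether a library came from 1 mouse or a pool. Nuclei came from bilateral 12 gauge punches of frozen tissue and were split between the antibodies, so signal was averaged over all cell types of the punch, and fewer cells that carry a signal and less signal per cell cannot be told apart.

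E2F3a is an activator of the E2F family, the transcription factors that the retinoblastoma protein holds in check and that drive genes of DNA replication and the cell cycle. E2F factors mostly bind near gene starts, and binding far from genes is usually studied at enhancers and at the starts of non-coding RNAs. In CUT&RUN an antibody tethers a nuclease to the chromatin, and the short fragments it releases are sequenced. In postmitotic neurons of the nucleus accumbens, a striatal region that receives dopamine input and takes part in reward, E2F3a has been linked to the response to repeated cocaine.

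At 13 members the peak covered part of a RefSeq promoter window, the 300 bases from 250 before to 50 after an annotated start. All 16 windows, of 14 genes, belonged to long non-coding RNAs (lncRNAs), since the rule had removed protein-coding starts. The windows were searched on both strands for a list of letter sets. Marked below are the core letters of E2F sites and those of SP and KLF sites, GGGCGG. The E2F core was taken as TTCCCGC or as one of its variants, which were TTCGCGC, the form TTGCCGC, and the form TTGGCGC. The sequences below are from RefSeq, GRCm38.p6 (mm10), 5′ to 3′ on the strand of the gene, with matches to either set of letters in capitals. Gm38882 and Crnde are shown as the windows at the members with the highest fold enrichment, and 2810410L24Rik as the window at a member with a lower differential site. Snhg8 and A630089N07Rik are the other genes with E2F letters and were chosen after their sequences were seen.
Gm38882, chr6:117879383-117879682, plus strand: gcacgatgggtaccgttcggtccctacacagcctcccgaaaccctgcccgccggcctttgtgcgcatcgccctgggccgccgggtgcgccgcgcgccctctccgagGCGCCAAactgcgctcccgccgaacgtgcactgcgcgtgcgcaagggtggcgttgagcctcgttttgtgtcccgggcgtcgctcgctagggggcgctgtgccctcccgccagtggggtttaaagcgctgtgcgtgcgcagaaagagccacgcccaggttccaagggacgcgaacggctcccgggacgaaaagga
Crnde, chr8:92356071-92356370, minus strand: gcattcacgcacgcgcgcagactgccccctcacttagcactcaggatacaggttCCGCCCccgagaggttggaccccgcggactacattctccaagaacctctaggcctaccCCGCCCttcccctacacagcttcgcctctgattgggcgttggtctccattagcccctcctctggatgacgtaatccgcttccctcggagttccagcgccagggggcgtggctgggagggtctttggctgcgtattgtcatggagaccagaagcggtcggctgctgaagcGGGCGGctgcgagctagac
A630089N07Rik, chr16:98082390-98082689, minus strand: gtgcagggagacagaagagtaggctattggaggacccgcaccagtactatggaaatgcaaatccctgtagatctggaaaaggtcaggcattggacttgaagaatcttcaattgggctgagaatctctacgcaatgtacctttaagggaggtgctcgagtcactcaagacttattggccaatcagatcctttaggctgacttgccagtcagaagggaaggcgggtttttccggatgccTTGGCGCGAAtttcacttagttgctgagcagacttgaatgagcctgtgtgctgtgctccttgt
Snhg8, chr3:123508287-123508586, minus strand: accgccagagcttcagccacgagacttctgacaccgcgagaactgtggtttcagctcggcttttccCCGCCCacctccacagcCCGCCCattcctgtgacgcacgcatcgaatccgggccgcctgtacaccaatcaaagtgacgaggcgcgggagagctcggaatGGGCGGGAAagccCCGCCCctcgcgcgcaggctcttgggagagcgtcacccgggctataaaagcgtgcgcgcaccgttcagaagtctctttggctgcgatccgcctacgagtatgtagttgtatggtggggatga
2810410L24Rik, chr11:120189807-120190106, minus strand: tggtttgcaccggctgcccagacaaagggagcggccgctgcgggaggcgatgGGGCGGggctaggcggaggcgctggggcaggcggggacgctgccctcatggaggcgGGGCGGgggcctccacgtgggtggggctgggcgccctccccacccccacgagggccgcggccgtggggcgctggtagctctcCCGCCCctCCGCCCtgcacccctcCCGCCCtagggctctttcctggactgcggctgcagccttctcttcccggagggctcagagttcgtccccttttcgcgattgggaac
The Gm38882 window held 1 E2F match, the Snhg8 window 1 that overlapped a GGGCGG match, and the A630089N07Rik window 2 that overlapped each other on opposite strands. The Crnde window held 3 GGGCGG matches and the 2810410L24Rik window 5, and neither held E2F letters.

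E2F letters were present in 3 of the 16 windows, or 18.8%. The exact 95% interval of that share, which treats the windows as independent, was 4.05% to 45.6% and held each share in the next sentence. The share was 4.93% of all 11588 lncRNA windows, 12.1% of all 21263 protein-coding windows and 26.0% of the 743 protein-coding windows at cocaine-only peaks at gene ends. With an extra T before the core, the letters were present in 2 windows at members (12.5%), against 8.21% of windows at cocaine-only gene-end peaks, 2.85% of all protein-coding windows and 1.18% of all lncRNA windows. GGGCGG was present in 11 of the 16 windows (68.8%), against 75.2% of windows at cocaine-only gene-end peaks, 46.2% of all protein-coding windows and 16.3% of all lncRNA windows. The palindrome TGACGTCA, the full cyclic AMP response element, was present in 2 windows at members (12.5%), those of the divergent pair 1810044D09Rik and 4930471M09Rik, which share most of their sequence. It was present in 7.67% of windows at cocaine-only gene-end peaks, 2.23% of all protein-coding windows and 0.975% of all lncRNA windows. The other sets searched are given as the share at members, then that of all lncRNA windows. ETS (12.5%, 3.89%), YY1 (12.5%, 2.19%) and CACGTG (12.5%, 5.89%) letters had larger shares at members, each from 2 windows only. The 2 ETS windows overlap each other and belong to 1 gene, E430024I08Rik, at 1 member. AP-1 (6.25%, 9.31%), NRF1 (0%, 1.23%) and CAGCTG (12.5%, 17.7%) letters had shares near those of all lncRNA windows. So did the nuclear receptor half-site (18.8%, 19.1%), CA repeats (0%, 5.05%) and GA repeats (0%, 4.97%). A single window is 6.25% of the 16, and each of these sets differed by less than that. The windows at members had a median GC content of 62.3% (43.3% to 74.0%) and a median of 19.5 CpG dinucleotides, against 63.0% and 24 in windows at cocaine-only gene-end peaks, 56.3% and 13 in all protein-coding windows, and 48.3% and 4 in all lncRNA windows. Base composition therefore moved with the shares of the E2F core and GGGCGG, and its part in the letter counts was not tested. The 16 windows hold pairs that overlap, and they cover 13 of 1159 members only.

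The members had a median fold enrichment of 4.57 over the peak caller's background, with quartiles of 3.87 and 5.49 and a range of 1.41 to 16.2. Peaks between genes that were shared with saline had a median of 5.70 (quartiles 4.45 and 7.30). Cocaine-only peaks within genes had a median of 4.81, and those at gene ends 5.27. The members were narrower than the shared peaks, with a median width of 465 bp against 811 bp, and their median −log10 q was 5.87 against 16.0. The other cocaine-only classes were similar to the members. Median widths were 461 bp within genes and 409 bp at gene ends, and median −log10 q values were 5.48 and 6.32. Each list was called once on pooled libraries, so these values have no replicate error, and the folds and q values are the authors'. Many members carried the same values: the 1159 peaks had 696 distinct pairs of fold and q, and the most common pair, a fold of 4.86 with a −log10 q of 3.66, was shared by 24 members.

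**Figure D1:**
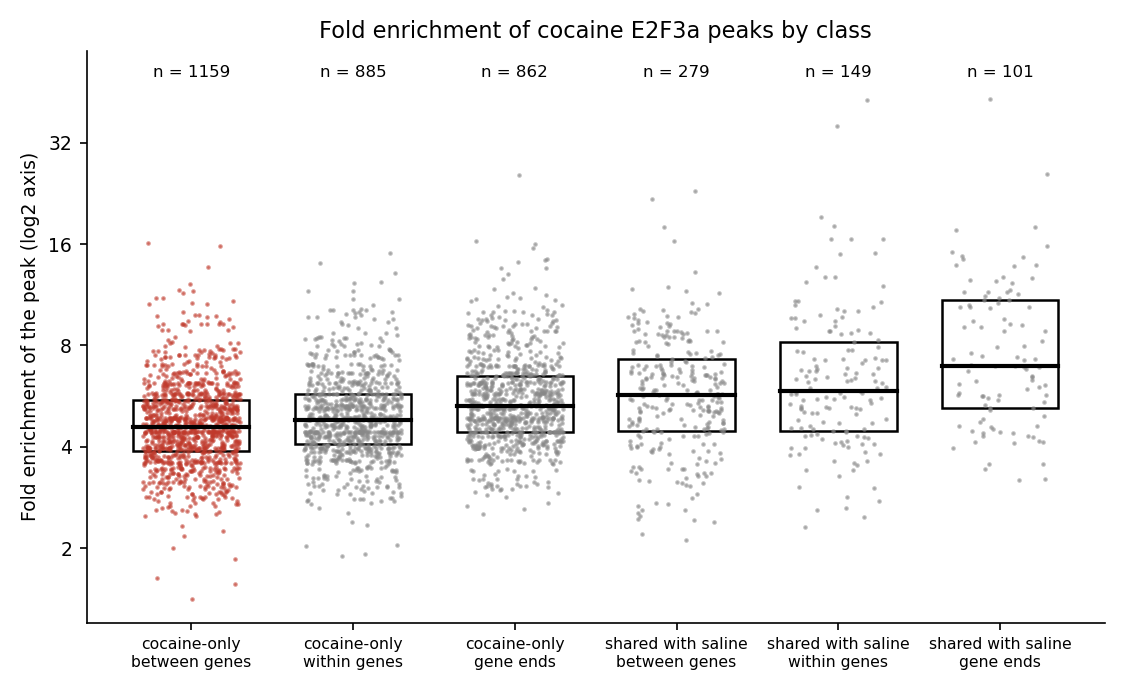
Fold enrichment (log2 axis) of each of the 3435 cocaine peaks, one point a peak, in 6 classes with the members at the left in red; boxes span the quartiles and thick lines are medians. The members' median of 4.57 is the lowest of the 6, and 14 of 1159 members reach 10-fold.

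Of all cocaine peaks on these chromosomes, 84.6% overlapped no saline peak, and the members were 80.6% of the 1438 cocaine peaks between genes. In the other direction, 286 of the 338 saline peaks between genes (84.6%) overlapped a cocaine peak. The cocaine list held 3467 peaks in all and the saline list 725, from 7 and 4 labelled libraries. When the cocaine list was trimmed to its 725 peaks of highest −log10 q, 154 members were left, which was 47.8% of the 322 peaks between genes in the trimmed list. The depth of the pooled libraries is unknown here, and its part in the number of members was not tested. At the edge of the rule, the members nearest to a saline peak lay 259 bp from it (C87436 the nearest gene), 260 bp (Tle2) and 305 bp (Mef2c). The excluded peaks with the least overlap shared 23 bp (Galr1), 72 bp (Dusp1) and 142 bp (Msl1) with a saline peak. In all, 10 members lay within 1 kb and 44 within 10 kb of a saline peak. The lowest −log10 q among members was 2.00, with a fold of 2.84, at peaks near Wars2, Epha3 and Col12a1.

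The 12 members with the highest fold enrichment were spread over 10 chromosomes. The highest, 16.2-fold, lay 36.0 kb downstream of Tmem121 (chr12:113225368-113225783), in no annotated gene. The next were 15.8-fold at chrX:170009645-170010139, 491 bp from the transcribed pseudogene Erdr1 and 19.2 kb beyond Mid1, which encodes a ubiquitin ligase, and 13.7-fold at chrY:90784573-90785055, 39.9 kb from Gm52481. These 2 had the highest −log10 q of all members, 329 (X) and 298 (Y). Mid1-ps1, a pseudogene copy of Mid1, is annotated near the Y peak, so reads of the 2 chromosomes may be split between near-identical copies and both values are uncertain. A fold of 12.2 was found inside the lncRNA gene 1700063D05Rik, 46.1 kb upstream of Ubash3b, which encodes a tyrosine phosphatase.

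Next among the 12 were members inside lncRNA genes that neighbour a protein-coding gene. The peak 2.08 kb upstream of Ptms, which encodes the acidic nuclear protein parathymosin, was enriched 11.7-fold inside A230083G16Rik. The peak 7.09 kb from Zfp239, a zinc finger gene, was enriched 11.6-fold across the Gm38882 start whose window is printed above, with its summit in the neighbouring lncRNA gene Gm38883. The peak 1.78 kb from Irx5, an Iroquois homeobox transcription factor gene, was enriched 11.5-fold over the Crnde start, 100 bp from the summit. Peaks near Nans, which encodes sialic acid synthase, and near Npffr2, a receptor for neuropeptide FF, each had a fold of 11.0, and the Npffr2 peak lay inside the lncRNA gene Gm7056. The last 3 were 10.8-fold near Tbpl1, a TBP-like transcription factor gene, 10.7-fold at 247 kb from Zfp608, and 10.6-fold near Tent4b, which encodes a non-canonical poly(A) polymerase. None of the 12 overlapped a differential site.

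The members lay at a median of 62.6 kb from the nearest protein-coding gene, with quartiles of 15.0 and 234 kb and a maximum of 2029 kb. Shared peaks between genes lay at a median of 88.9 kb. Of the members, 103 were between 1 and 5 kb from a gene, 242 between 5 and 20 kb, 324 between 20 and 100 kb, 370 between 100 and 500 kb, and 120 farther than 500 kb. Median fold enrichment was 4.80 in the nearest bin and 4.47 in the farthest. Where the strand of the nearest gene was known, 462 members lay upstream and 453 downstream of it, and the nearest bin held 38 upstream and 42 downstream. The strand was not in the table used for the other 244. The members closest to the 1 kb limit were 1021 bp from Ankub1, 1045 bp from Gm21753 and 1089 bp from Fam171a2, with folds of 4.86, 4.86 and 6.03. Cocaine-only peaks just excluded lay 1000 bp from Obp2b, 948 bp from Celsr3 and 930 bp from Jun, with folds of 3.97, 6.41 and 3.06.

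**Figure D2:**
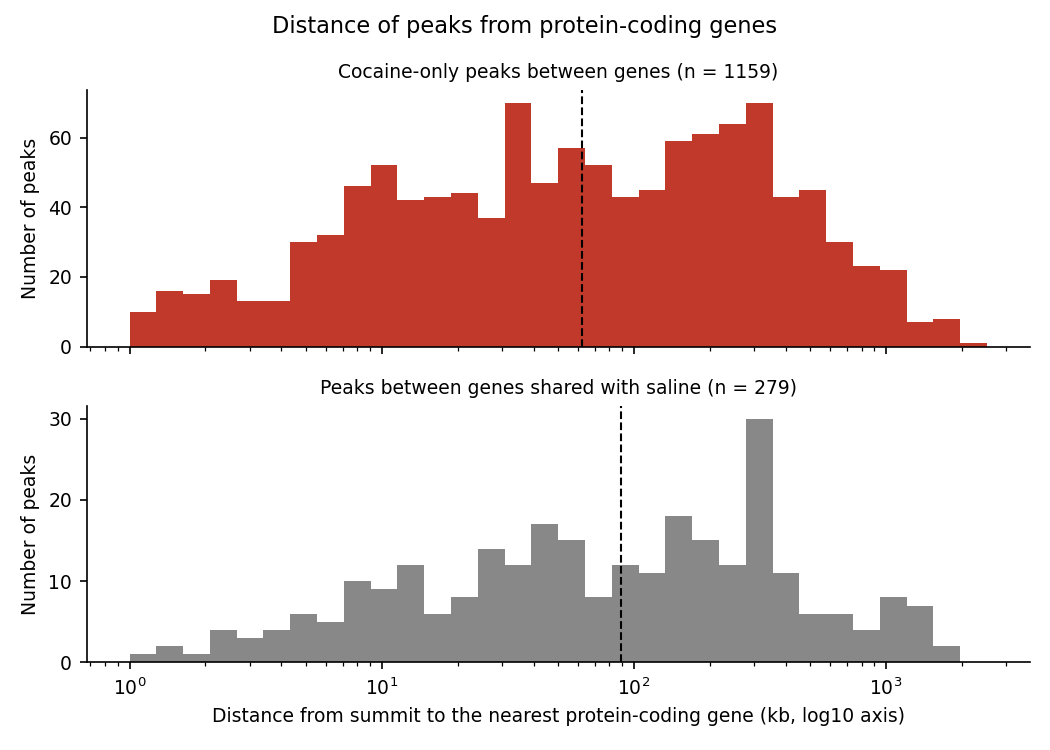
Number of peaks by distance in kb from summit to the nearest protein-coding gene (log10 axis), members above in red and shared peaks between genes below in grey; dashed lines mark the medians, 62.6 and 88.9 kb. Both distributions are broad, from about 1 kb to beyond 1000 kb.

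Non-coding genes were allowed by the rule. The summit lay inside an annotated non-coding gene or pseudogene at 173 members (14.9%), against 41 of 279 shared peaks between genes (14.7%). Of the 173, 141 were in lncRNA genes, 17 in pseudogenes and 6 in transcribed pseudogenes. The summit was within 1 kb of an annotated lncRNA start at 35 members, 3.02% of all, against 5 of the 279 shared peaks (1.79%). The table of starts holds none of chromosome 18, where 37 members lay, and no starts of pseudogenes. It may lack other lncRNA starts, so the 35 may be too low. For the member 246 bp from the lncRNA gene Neat1, the nearest listed start was that of Malat1, 43054 bp away. The folds of the 35 members ranged from 3.45 to 11.7, with a median of 5.21. The highest were the Ptms, Zfp239 and Irx5 peaks above, a 10.04-fold peak 495 bp from the Gm51696 start and 5.43 kb from Ctdspl, and an 8.11-fold peak 684 bp from the Gm36734 start and 178 kb from Adamts16.

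Several lncRNAs with known roles were among these loci and were chosen after their values were seen. A 9.76-fold peak lay 246 bp from Neat1, the RNA that scaffolds paraspeckles, and 5.25 kb from Frmd8. A 4.45-fold peak lay 22 bp from the start of Chaserr, a lncRNA known to restrain expression of its neighbour Chd2, which encodes a chromatin remodeller. A 5.32-fold peak lay inside Sox2ot, 11.8 kb from Sox2. A pair of members, with folds of 5.18 and 4.61, lay 2.69 and 2.00 kb from Dlx6, inside the antisense RNA gene Dlx6os1, which is transcribed in developing GABAergic neurons. Snhg8 and Mir22hg are hosts of small RNAs, and the peaks at their starts had folds of 5.21 and 7.69.

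5 of the 1005 microRNA hairpins in the RefSeq table lay within 5 kb of a member. Mirlet7i was 327 bp from a 4.30-fold member, Mir22 was 2118 bp from a 7.69-fold member, and Mir137 was 2560 bp from a 4.97-fold member. Mir9-2 and Gm51268, which is annotated on the opposite strand of the same hairpin and is the gene of mmu-miR-9b, were 4828 and 4835 bp from the same 4.27-fold member. The mature microRNAs of the named loci that are generally the abundant arm are shown because these genes are neuronal or growth regulators with annotated products. Their seeds, bases 2 to 8, are in capitals and no 2 of the 4 share a seed.
mmu-let-7i-5p: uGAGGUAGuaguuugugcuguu
mmu-miR-22-3p: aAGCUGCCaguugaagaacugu
mmu-miR-137-3p: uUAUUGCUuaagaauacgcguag
mmu-miR-9-5p: uCUUUGGUuaucuagcuguauga
The distances place peaks beside these hairpins, and no expression was measured.

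The genes nearest to members were read against lists of neuronal, cell cycle and cell type genes. At least 1 member was nearest to 956 of 21887 protein-coding genes, or 4.37%. The median length of flanking sequence, up to the next gene on both sides, is given with each list. It was 38.8 kb for all protein-coding genes, and its part in the shares was not tested. Nearness does not show that a peak acts on a gene.

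Of 43 cell cycle and replication genes only Cdkn1a, which encodes the cyclin-dependent kinase inhibitor p21, was nearest to members, and it was nearest to 3. The list share was 2.33%, with a median flank of 18.2 kb. Of 13 E2F and RB family genes only E2f2, itself an activator E2F, was nearest to a member, with a 4.91-fold peak 9.26 kb upstream. That list's share was 7.69%, with a median flank of 20.6 kb. None of 22 DNA repair and checkpoint genes was nearest to a member (median flank 12.7 kb).

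Synaptic adhesion and axon guidance genes, which encode surface proteins that match and align neurites and lie in long gene-poor stretches, had the highest share of the lists: 30 of 83 (36.1%) were nearest to 50 members. Their median flank was also the longest, 1302 kb. The highest folds were 7.82 near Epha6, an ephrin receptor gene, 6.65 at 1519 kb from the teneurin gene Tenm3, and 6.40 near the cadherin gene Cdh6. Developmental transcription factor genes followed, with 16 of 64 (25.0%) nearest to 17 members and a median flank of 611 kb. After Irx5 the highest folds were 6.18 near Satb1, a chromatin organiser, and 5.92 near Zfhx4, and others on the list were Sox2, Dlx6, Zic1, Tbr1 and Pou3f2.

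Of 38 channel genes 7 (18.4%, median flank 236 kb) were nearest to 8 members, with the highest folds at the potassium channel genes Kcnd2 (5.43), Kcnj6 (4.94) and Kcna4 (4.86). Of 41 glutamate receptor and postsynaptic genes 7 (17.1%, median flank 87.7 kb) were nearest to 10 members, among them the AMPA receptor subunit gene Gria3 (6.56) and the metabotropic receptor gene Grm8 (5.58). Of 30 medium spiny neuron and dopamine genes 4 (13.3%, median flank 264 kb) were nearest to 5 members. These were Tac1, which encodes the substance P precursor of D1-type neurons, with a 7.75-fold peak 99.9 kb upstream, Foxp2 with a 6.00-fold peak, the D1 receptor gene Drd1 with a 4.06-fold and a 2.94-fold peak, and Ebf1. Of 34 activity-regulated genes (median flank 131 kb) only Klf10 was nearest to a member, a share of 2.94%, with a 4.48-fold peak 83.8 kb away.

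Of 44 chromatin regulator genes 5 (11.4%, median flank 39.9 kb) were nearest to 6 members. The highest fold was 9.77 at 210 kb from Tet2, which encodes an enzyme that oxidises methylated cytosine in DNA. Next were 7.68 at 76.3 kb from Chd2 and 6.52 at 1.75 kb upstream of Kmt2a, a histone methyltransferase gene. Of 32 splicing factor genes found in the annotation 5 (15.6%, median flank 69.8 kb) were nearest to 10 members, led by Mbnl1 (7.01, 3.36 kb upstream), Elavl2 (5.99) and Srsf10 (5.74). Among markers of other cell types, the astrocyte gap junction gene Gja1 was nearest to 2 members, with folds of 3.43 and 2.55, and was the only one of 10 astrocyte genes (median flank 58.3 kb). None of 10 oligodendrocyte lineage, 10 microglia or 8 endothelial marker genes was nearest to a member, and their median flanks were 72.0, 33.2 and 113 kb.

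Most members stood alone. With summits up to 100 kb apart counted as 1 run, 945 members were single, 68 runs held 2, 15 runs held 3 and 6 runs held 4 or more, so 18.5% of members were in a run. The longest run held 8 members over 106 kb of chromosome Y (chrY:90722158-90828159) around Mid1-ps1, with folds of 2.70 to 13.7. A run of 6 on chromosome 8 (chr8:20662219-20704701), beside Gm21119, had folds of 2.82 to 4.17. Another run of 6 covered chr9:3003352-3030984, more than 300 kb from the nearest gene, Alkbh8. Its folds, 1.41 to 2.65, included the lowest of all members, while its −log10 q values were 11.0 to 268. 5 shared peaks lay within the same 27.6 kb. A run of 4 near Rwdd3 (chr3:120635846-120826214) lay wholly inside the lncRNA gene 6530403H02Rik, with folds of 4.42 to 5.42.

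A run of 5 members lay within 8.12 kb beyond Mef2c (chr13:83725867-83733986), a gene for an activity-dependent transcription factor of neurons. Their folds in order along the chromosome were 4.70, 6.47, 5.28, 3.90 and 4.27, and their summits were 59.0 to 66.6 kb from the gene. All 5 lay inside the lncRNA gene C130071C03Rik, which also holds Mir9-2. A saline peak of 4.93-fold lay among them without touching any, so the locus was not empty in the saline list. No differential site was listed there.

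The run beside Cdkn1a held 4 members within 5.98 kb (chr17:29101808-29107789), and no saline peak was listed in it. Their summits lay 1.48, 4.00 and 5.39 kb downstream of Cdkn1a and, for the last, 6.58 kb from Rab44. Their folds were 5.83, 4.57, 5.47 and 3.79. A differential site called higher after cocaine overlapped the first and another overlapped the last.

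**Figure D3:**
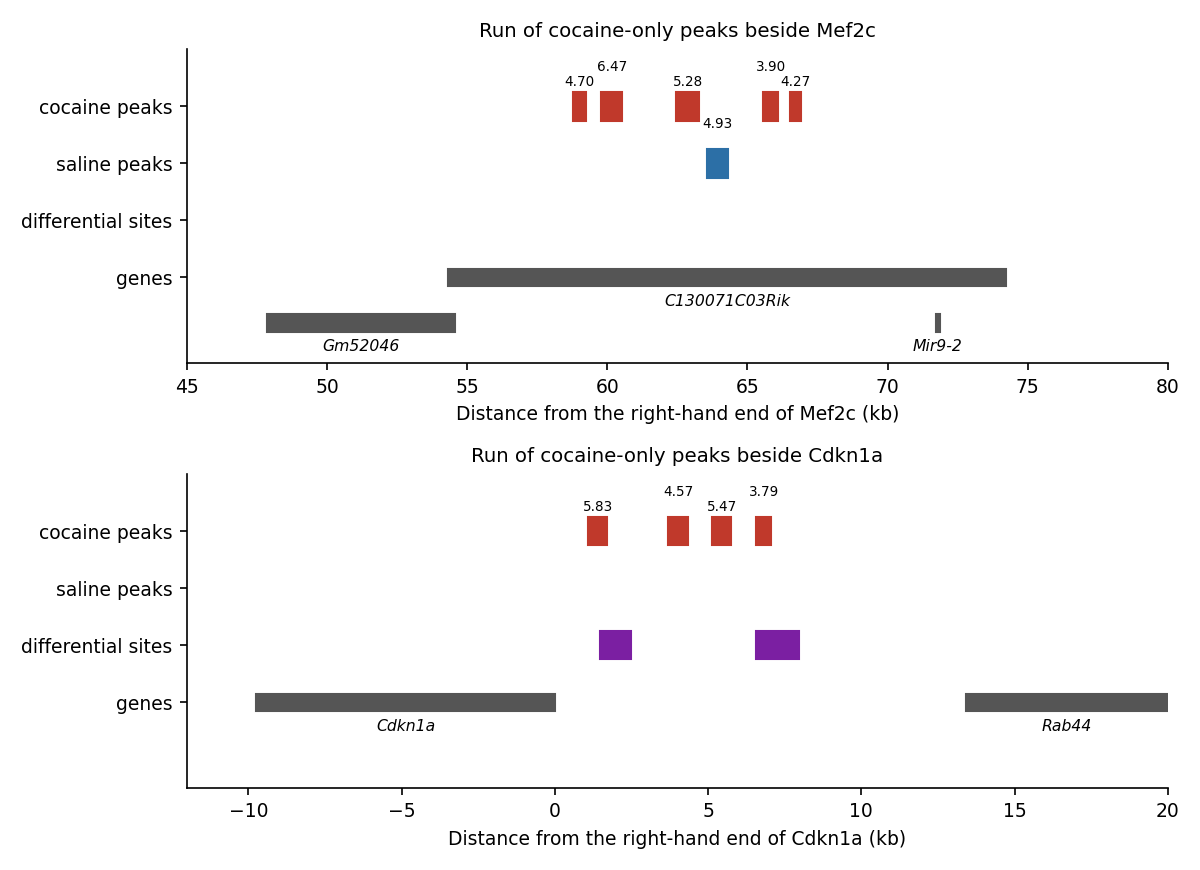
Runs of members beside Mef2c (upper) and Cdkn1a (lower), by distance in kb from the right-hand end of each gene; red boxes are cocaine peaks, all of them members, blue boxes saline peaks, purple boxes differential sites, all called higher, and grey bars annotated genes, with fold enrichment above each peak. The Mef2c run has 5 members and 1 saline peak, and the Cdkn1a run 4 members and none.

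By chromosome, the members ranged from 5.73 to 10.9 per 10 Mb of sequence outside protein-coding genes over the autosomes, with a median of 7.72. Chromosome 19 had the highest density (32 members) and chromosome 8 the lowest (42 members). Chromosome X held 91 members, or 7.55 per 10 Mb, within the range of the autosomes. Chromosome Y held 20, or 2.27 per 10 Mb, and 8 of them were in the single run above. Shared peaks between genes had a median of 1.61 per 10 Mb on the autosomes, 2.90 on X and 1.70 on Y. Males gave 5 of the 7 labelled cocaine libraries and 2 of the 4 saline libraries, and since both lists pool the sexes, the part of sex in the counts on X and Y cannot be told apart from that of cocaine.

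**Figure D4:**
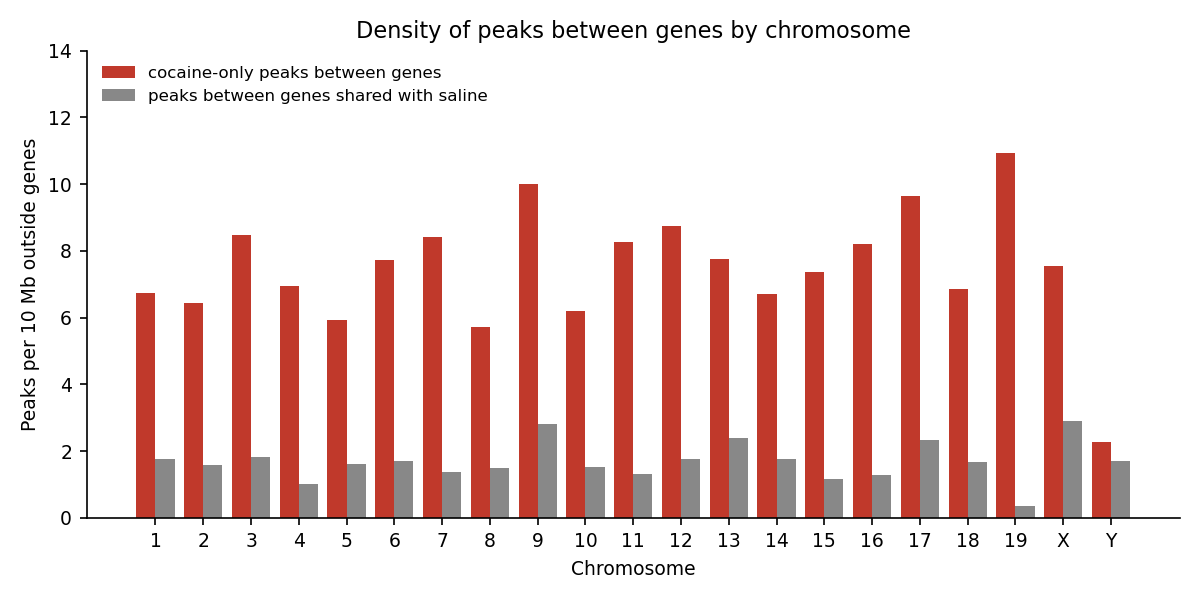
Peaks per 10 Mb of sequence outside protein-coding genes on each chromosome, members in red left of shared peaks between genes in grey. Autosomes range from 5.73 to 10.9 members per 10 Mb, and Y has 2.27.

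A deposited table lists differential sites, each with a normalized count for 6 cocaine and 4 saline libraries that are not named. Of its 956 sites, 49.5% were called higher and 49.6% lower after cocaine at an adjusted p under 0.05 in the authors' deposited table. The labels give 7 E2F3a libraries after cocaine, and which of them the 6 values stand for cannot be told. The peak lists come from the same set of labelled libraries, so the overlap is described and not tested. A site called higher overlapped 60 members (5.18%), against 4.16% of all cocaine peaks. A site called lower overlapped 5 members (0.431%), against 1.05% of all cocaine peaks. Among shared peaks between genes, 38 (13.6%) overlapped a higher site and none a lower site. Cocaine-only peaks at gene ends overlapped a higher site in 4 cases (0.464%) and a lower site in 18 (2.09%). Thus 65 of 1159 members (5.61%) had a called site, 62 sites in all, and most members were not at a listed site.

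At the 58 higher sites the authors' deposited table gave log2 fold changes of 0.61 to 2.46, with a median of 1.09 (0.97 over all higher sites). The per-library counts overlapped between the groups at nearly all of them. Every cocaine library exceeded every saline library at 3 of the 58 (5.17%), against 11.4% of all sites called higher. At 51 of the 58 sites (87.9%), cocaine 5 and 6 gave the top 2 of the 10 values. Median counts over the 58 sites were 80.8 and 65.8 in cocaine 5 and 6, and 14.6 to 35.0 in the other 4 cocaine libraries, against 18.1 to 23.5 in the 4 saline libraries. So cocaine 5 and 6 stood apart in normalized counts. Cocaine 3 (24.6) and cocaine 4 (35.0) lay above every saline median, cocaine 1 (23.1) inside the saline range and cocaine 2 (14.6) below it.

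The steps between low values gave what 1 read was worth in each library, which was 2.21 and 1.71 normalized counts in cocaine 5 and 6. Elsewhere it was 0.641 to 1.30 (cocaine 1 to 4) and 0.384 to 1.88 (saline 1 to 4). The recovered reads per library over all called sites were 46138 to 102375 after cocaine and 41102 to 152185 after saline. At the 58 higher sites the median number of recovered reads was 36.5 in cocaine 5 and 38.5 in cocaine 6. Both lay inside the range of the saline libraries, 12.5 to 48.01. Cocaine 5 and 6 therefore stood apart in normalized counts and not in reads, and which scaling is right was not tested. The median log2 ratio of mean counts at the 62 called sites of members, with a pseudocount of 1, was 1.03, and the SD of the 6 cocaine libraries' own medians was 0.94. It was 0.22 without cocaine 5 and 6 and 0.41 when reads were scaled to their total over called sites. That total includes the sites measured here, so by construction it draws down a library that is high at them. At the 58 higher sites the median was 1.06, and 0.26 without those 2 libraries. Without them 17 of the 58 (29.3%) were still at least 1.5-fold higher, against 31.5% of all higher sites, and 12 were below the saline mean.

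The higher sites with the smallest adjusted p were mostly far from genes. The first lay 17.5 kb from Tas2r139, a bitter taste receptor gene, at chr6:42122902-42123900. Its counts were 14.8, 9.36, 18.1, 15.6, 31.0 and 35.9 in cocaine libraries 1 to 6, against 3.80, 0, 6.91 and 5.64 in saline libraries 1 to 4. The groups did not overlap there, the means were 20.8 ± 10.3 and 4.09 ± 3.01 (SD, n = 6 cocaine and n = 4 saline), and the authors' deposited table gave a log2 fold change of 2.35 with an adjusted p of 0.000198 from diffReps. The member at this site had a fold of only 2.87.

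The next 7 sites, in order of unadjusted p, shared an adjusted p of 0.000238 from diffReps in the authors' deposited table, and at all 7 the groups overlapped. They were near Gpr158, an orphan-type receptor gene, Lama2, a laminin gene, Mctp2, Brinp2, Ets1, a transcription factor gene, Tmem74 and Plekhg6, with log2 fold changes of 1.21 to 1.56 in the authors' deposited table. The Ets1 site (chr9:33040702-33042000) lay in an annotated non-coding gene. It had 28.2, 12.5, 21.1, 37.6, 77.4 and 56.4 in cocaine libraries 1 to 6, against 13.6, 13.4, 20.0 and 11.3 in saline libraries 1 to 4. Its cocaine 2 value was below 3 of the 4 saline values. Without cocaine 5 and 6 the log2 ratio at the 7 sites was 0.65 to 0.83.

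The other 2 higher sites with groups that did not overlap were near Akap13 and Pex2, and they are named for that reason, after their values were seen. At the Akap13 site, which encodes an anchoring protein of protein kinase A, counts were 24.4, 54.1, 44.3, 27.2, 35.4 and 127 in cocaine libraries 1 to 6, against 20.1, 24.2, 19.2 and 7.52 in saline libraries 1 to 4. The member there had a fold of 6.82 and lay 798 bp from the start of the lncRNA Gm46017. At the Pex2 site the cocaine counts ran from 25.2 to 65.0, against 16.9 to 22.3 in saline. Cocaine 6 was the highest at both sites, and cocaine 5 lay below cocaine 2 and 3 at Akap13.

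The sites in the Cdkn1a run did not separate the groups. Near Cdkn1a (chr17:29102202-29103200) counts were 12.2, 1.04, 18.1, 22.0, 66.4 and 37.6 in cocaine libraries 1 to 6, against 9.78, 13.4, 13.1 and 20.7 in saline libraries 1 to 4. The log2 fold change in the authors' deposited table was 0.88, and the log2 ratio without cocaine 5 and 6 was −0.08. The authors' enrichment over background was 0.67 after cocaine and 0.70 after saline, the opposite order to the mean counts. Near Rab44 (chr17:29107302-29108700) counts were 25.0, 16.6, 28.2, 36.3, 108 and 56.4 in cocaine libraries, against 19.6, 10.2, 18.03 and 18.8 in saline libraries. There the log2 fold change in the authors' deposited table was 1.44, and the log2 ratio without cocaine 5 and 6 was 0.64. The authors' enrichment near Rab44 was 0.92 after cocaine and 0.68 after saline.

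The run on chromosome 9 had 4 of the higher sites, with mean counts of 721 to 12418 after cocaine and 449 to 7409 after saline. Its highest site had 6975, 5217, 9343, 10759, 17404 and 24812 in cocaine libraries 1 to 6, against 7351, 6521, 6511 and 9254 in saline libraries 1 to 4. The run on chromosome 8 also had 4 higher sites. Cocaine 5 and 6 were the highest libraries at each of the 8 sites. The run on chromosome 9 lay beside 3 Mb, the first base counted here on the autosomes and X. In all, 13 members started close to 3 Mb. Higher sites at members lay there on other chromosomes too, at chr18:3003902-3005900, chr4:3089302-3090800 and chr10:3113902-3116300. Whether reads of repeated copies were gathered at these places was not tested, so their counts and folds are uncertain.

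The 4 sites called lower after cocaine carried 5 members, although a member is by its rule a peak listed after cocaine only. At the site near Ubl3 (chr5:148709402-148710600), which encodes a membrane-anchored ubiquitin-like protein, counts were 25.7, 20.8, 21.1, 15.6, 11.1 and 13.7 in cocaine libraries 1 to 6, against 34.2, 31.8, 39.5 and 37.6 in saline libraries 1 to 4. The groups did not overlap, and this was 1 of the 4 lower sites, while they did not overlap at 48.1% of all sites called lower. The log2 fold change there was −0.99 with an adjusted p of 0.000629 from diffReps in the authors' deposited table.

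At the site near Vamp2, the gene for the synaptic vesicle protein synaptobrevin, counts were 51.3, 55.1, 21.1, 33.7, 0 and 32.5 in cocaine libraries 1 to 6, against 54.9, 52.8, 61.0 and 54.5 in saline libraries 1 to 4. Cocaine 5 was listed at 0 and cocaine 2 lay inside the saline range. The authors' deposited table gave this site an enrichment of 6.60 after cocaine and 2.31 after saline, the opposite order to its counts. At the site over the 2810410L24Rik start, 37.6 kb from Slc38a10, the cocaine counts ran from 39.1 to 66.1, against 57.9 to 95.1 in saline, and 2 members lay in it. At the site near Bahcc1, the cocaine counts ran from 5.20 to 30.8, against 30.1 to 33.4 in saline. Cocaine 5 and 6 were the lowest cocaine libraries at Ubl3 and the highest at Bahcc1.

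**Figure D5:**
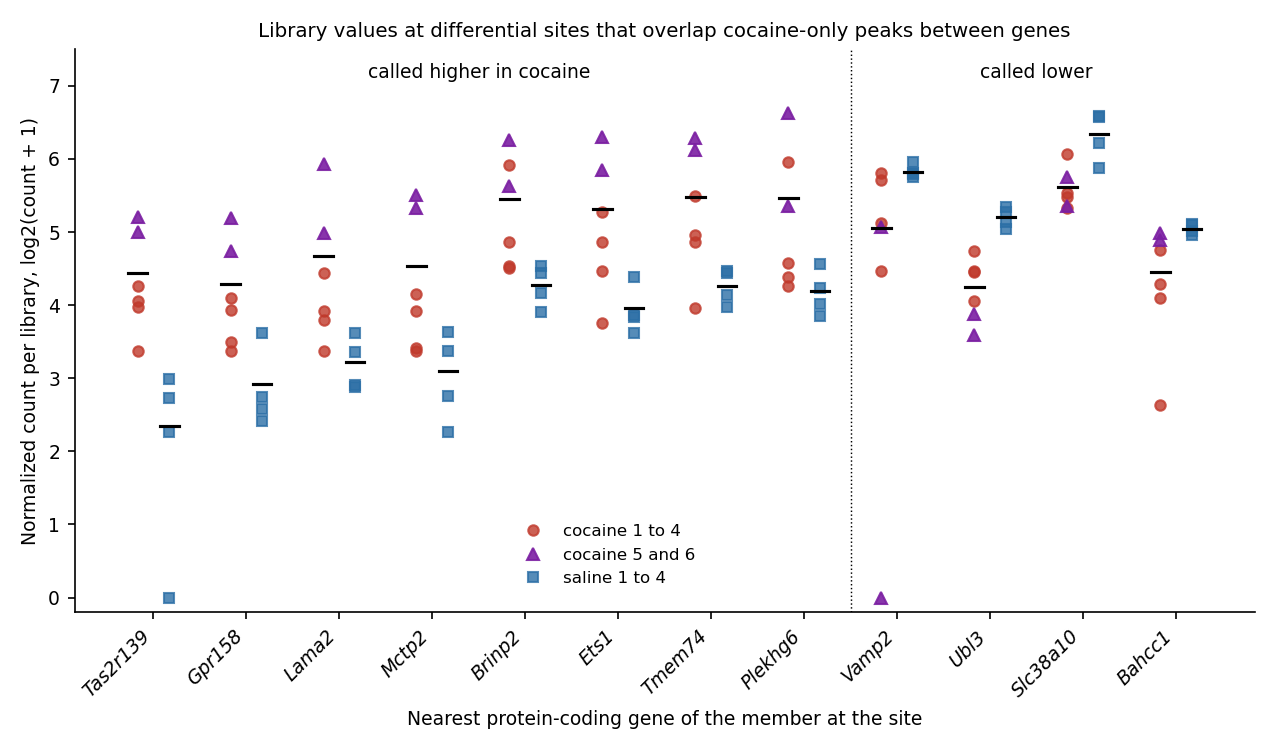
Normalized count of each library, as log2(count + 1), at the 8 higher and 4 lower sites named by the rule, cocaine left of saline at each gene; circles are cocaine 1 to 4, triangles cocaine 5 and 6, squares saline 1 to 4, and bars the log2 of the group mean plus 1. A triangle is the highest cocaine value at all 8 higher sites, and of these 12 sites the groups are apart at Tas2r139 and Ubl3.

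The same table also gives an enrichment over the authors' own background. Over the 58 higher sites of members the median in the authors' deposited table was 0.98 after cocaine and 0.67 after saline. It was under 1 after saline at all 58 sites and under 1 after cocaine at 31. It reached 2 after cocaine at 3, which were near Akap13 (2.59), Arid1b (2.26) and Ticam2 (2.00). The Arid1b site, which also had the highest log2 fold change (2.46), rested on cocaine 2 (386) and cocaine 6 (906). Its median cocaine count was 40.2, against a saline mean of 43.0. At the Ticam2 site the log2 ratio without cocaine 5 and 6 was −0.13. The sources used here do not say which background the enrichment has.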

How the data were processed

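The submitters' processing notes name the build mm10. Per the file headers, both peak lists are MACS output, called by the authors once per treatment on pooled libraries of both sexes. They hold each peak's fold enrichment (a ratio), its −log10 p and −log10 q, a whole-number score and the summit offset, all deposited by the authors. The largest q was 0.00999. Neither source used here gives the version or says whether IgG was used. The authors' differential sites, from diffReps per the file headers, hold normalized counts per library (deposited with no names), group means of that signal, enrichment ratios, log2 changes, and p-values before and after adjustment.

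Peaks were classed with Python 3.11.15, pandas 2.3.3, NumPy 2.4.6 and SciPy 1.17.1 against RefSeq GRCm38.p6 genes, and the classes were checked on simulated positions. The gene lists, the members and the alternatives were chosen with earlier results of these data known. A few items are not reported here. Named were the 12 members of highest fold, up to 8 sites a direction by adjusted p, 3 members a list, 5 at lncRNA starts, the longest runs (6 are described, since 2 tied at 4 members) and 3 peaks either side of each threshold. Library values at 20 reads or fewer were whole multiples of 1 read within 0.1. No test was run, since the rule used these libraries, and promoter windows took the place of the planned sequence around summits, since no genome sequence was used. Intervals and counts cover these libraries only.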

Additional observations from a re-analysis of the deposited data

Results flagged for a closer look

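Over the 58 higher sites that overlap members, the median normalized count was 23.5 in saline 4, and 18.1 to 18.4 in the other 3 saline libraries. The gap to saline 4 was large against the spread of the others, which is what singled it out. It was the only such library among 26 groups of values looked at (cocaine and saline at 12 sites, and the medians). Chance gives about 1 in 20 groups, so 1 among 26 was not unusual. The groups come from the same libraries, so they are not independent. Each normalized count in saline 4 came from fewer reads, with 1 read worth 1.88 counts and a median of 12.5 reads a site.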

How the results depend on the processing

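The number of members stayed within 1.5 times of 1159 when sharing needed 50% reciprocal overlap (1213), at q of at most 0.001 (1007), over 5 kb from genes (1056) and with all annotated genes excluded (953). With the cocaine list trimmed to the saline list's length it was 154, with a median fold of 5.79; at q of at most 0.001 the median fold was 4.78. Members at differential sites numbered 63 at an adjusted p under 0.01, 74 with sites within 1 kb and 76 with reciprocal overlap, against 65; those at lower sites, a count added after seeing the data, numbered 8 with sites within 1 kb, against 5. The median log2 ratio at the called sites of members was 1.05 and 0.95 with pseudocounts of 0.25 and 4, and 1.03 with a mean count of at least 10. It was 0.41 with reads scaled to their total over called sites, which include these sites, and 0.22 without cocaine 5 and 6. Leaving out 1 library at a time gave 0.70 to 1.18. The E2F share of promoter windows, an analysis added after seeing the data, was 12.5% with the strict letters, 21.4% per gene and 18.8% at q of at most 0.001. The planned searches of sequence around summits were not run, because no genome sequence was used here. No paired analysis was possible because the library values carry no replicate names and no test was run. The depth of the pooled libraries is unknown.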
